A study of Mus musculus with 4 samples.

Results

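A late group of thymic iNKT1 cells was picked out of single-cell transcript counts by 1 fixed rule on detected genes, and it held 2162 of 19647 cells (11.0%). Invariant natural killer T cells, or iNKT cells, carry a nearly constant T cell receptor that reads lipids on CD1d, and iNKT1 cells are their interferon-γ-producing subset, many of which stay in the thymus. A member had at least 1 UMI (unique molecular identifier, 1 counted transcript molecule) of Nkg7, a granule membrane protein gene of cytotoxic lymphocytes, and of at least 3 of 6 markers chosen for this group: Ccl5, Gzma, Ifitm2, Ifitm3, Ly6c2 and Cd244. Cells were left out with 3 or more of Ifit1, Ifit3, Isg15, Rsad2 and Usp18 (an interferon response), with 2 or more of Klrg1, S1pr5, Zeb2 and Cx3cr1 (circulating effector cells), or with 2 or more of Top2a, Birc5, Ccnb2 and Rrm2 (cycling cells). The rule used measured values, so the 20 genes it reads describe the members and are no finding within them. The members are called late cells here, and the 9340 Nkg7-positive cells with 0 to 2 of the markers and the same exclusions are called other Nkg7-positive cells.

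The cells came from thymi of untreated C57BL/6 mice and of Hivep3-/- mice backcrossed to C57BL/6, all 8 to 9 weeks old, with 2 mice per genotype and 1 library per mouse. Hivep3 encodes a large zinc finger protein, and it was disrupted in the whole animal. A difference between genotypes in these libraries therefore need not arise in the iNKT cells themselves. In mixed bone marrow chimeras, which were not sequenced here, the paper found the loss of iNKT cells to be intrinsic to the cells. Sorting took thymocytes stained by PBS57-loaded CD1d tetramer as an equal mix of CD44low and CD44high cells, which sets part of every share of all cells given below. C57BL/6 replicate 1 stood apart, with 284 CPM of Xist and no UMI of the Y-linked genes in its late cells, against 0.0 to 2.0 CPM of Xist and 99.4 to 163 CPM of Y-linked transcripts in the other 3 libraries. Its sex therefore differed from theirs, and the calls that were lost without it are named below.

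The 6 markers are known from cytotoxic and interferon-exposed lymphocytes. Gzma encodes granzyme A, a protease of cytotoxic granules, and lies on chr13:113093825-113100981. Ccl5 (chr11:83525778-83530518) encodes a chemokine that effector T cells store and release. Ifitm2 and Ifitm3 encode small membrane proteins that hinder the entry of viruses, and they lie close together at chr7:140954837-140955987 and chr7:141009586-141010770. Ly6c2 (chr15:75108158-75111970) encodes a cell surface protein of effector and memory T cells, and Cd244 (chr1:171559193-171609746) encodes the receptor 2B4 of the SLAM family on NK and cytotoxic T cells. These are positions of protein-coding genes in the GENCODE annotation of GRCm38.

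The bases before the RefSeq start sites of 4 markers are shown because these genes were read together to define the cells, and because Gzma and Ifitm3 were found in a smaller share of Hivep3-/- than of C57BL/6 members and Ifitm2 in a larger one. Each line gives the 250 bases upstream of the first RefSeq start in GRCm38.p6, on the strand of the gene and 5′ to 3′, with matches to 3 searched motifs in capitals.
Gzma (chr13:113100982-113101231, minus strand): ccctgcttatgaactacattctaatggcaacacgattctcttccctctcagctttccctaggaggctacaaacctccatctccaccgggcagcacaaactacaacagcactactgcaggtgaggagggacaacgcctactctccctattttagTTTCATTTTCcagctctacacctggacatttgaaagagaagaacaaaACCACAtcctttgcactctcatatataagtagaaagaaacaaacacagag
Ifitm2 (chr7:140955962-140956211, minus strand): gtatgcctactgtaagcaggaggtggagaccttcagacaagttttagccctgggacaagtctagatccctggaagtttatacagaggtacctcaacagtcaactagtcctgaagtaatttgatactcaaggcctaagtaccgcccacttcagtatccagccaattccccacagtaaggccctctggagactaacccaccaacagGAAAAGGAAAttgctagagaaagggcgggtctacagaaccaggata
Ifitm3 (chr7:141010745-141010994, minus strand): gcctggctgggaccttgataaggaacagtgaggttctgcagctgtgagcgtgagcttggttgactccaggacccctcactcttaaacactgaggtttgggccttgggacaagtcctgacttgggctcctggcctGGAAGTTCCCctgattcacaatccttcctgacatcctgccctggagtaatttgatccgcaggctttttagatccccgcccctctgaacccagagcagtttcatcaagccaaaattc
Ly6c2 (chr15:75111972-75112221, minus strand): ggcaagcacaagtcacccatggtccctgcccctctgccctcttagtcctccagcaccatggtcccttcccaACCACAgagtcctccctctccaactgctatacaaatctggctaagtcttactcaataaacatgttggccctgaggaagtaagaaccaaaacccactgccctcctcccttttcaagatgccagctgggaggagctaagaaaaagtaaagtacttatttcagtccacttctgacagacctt
The motifs, searched on both strands, were an interferon element (GAAANNGAAA), a Runx motif (TGTGGT) and the kappa B motif (GGGRNNYYCC). The last is an element that HIVEP proteins are known to bind. N is any base, R is A or G, and Y is C or T. Gzma held the interferon element 97 to 88 bases before the start and the Runx motif 50 to 45 bases before it, both on the opposite strand, and Ifitm2 held the interferon element 46 to 37 bases before its start. Ifitm3 held the kappa B motif 116 to 107 bases before the start, and Ly6c2 held the Runx motif 179 to 174 bases before its first start. Both of these matches were on the opposite strand, and that of Ifitm2 was on the strand of the gene. Over 32851 mouse promoters of the same length, 2.98% held the interferon element, 14.0% the Runx motif and 7.25% the kappa B motif. The T-box motif GGTGTGA, also searched, matched in none of the 4 and in 3.33% of all promoters. The window of Nkg7, which the rule also reads, held the T-box motif 13 to 7 bases before its start. It held the Runx motif 83 to 78 bases before the start, on the opposite strand. The upstream window of Cd244 held none of the 4 motifs, and that of Ccl5 was not analysed here. A match describes the letters only.

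Late cells made up a larger share of the Hivep3-/- libraries. C57BL/6 replicates 1 and 2 held 462 and 299 late cells, while the Hivep3-/- pair held 748 and 653. Of all kept cells they were 6.39% (95% exact binomial interval 5.84 to 6.98) and 8.19% (7.32 to 9.13) in C57BL/6 against 16.3% (15.2 to 17.4) and 15.7% (14.6 to 16.8) in Hivep3-/-. The 2 genotypes did not overlap, with means of 7.29% ± 1.27 in C57BL/6 and 15.97% ± 0.422 in Hivep3-/- (SD, n = 2 each, two-sided exact permutation p = 0.333, the smallest that 2 against 2 libraries can give). Among Nkg7-positive cells the shares were 12.4% and 12.7% in C57BL/6 and 25.2% and 26.6% in Hivep3-/-, a difference of 13.4 percentage points (exact permutation p = 0.333). Intervals here cover counting error only. The share is counted from the 6 markers, so a marker that is higher in Hivep3-/- admits more cells by itself. The part of that in the share was not tested.

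Depth moves a rule that counts detected genes, and the Hivep3-/- libraries were deeper per cell. Late cells had a median of 3642.5 and 4580 UMIs in C57BL/6 and of 6626 and 5859 in Hivep3-/-. When every cell was thinned at random to 2000 UMIs, late cells were 10.1% and 9.60% of Nkg7-positive cells in C57BL/6 and 15.1% and 18.9% in Hivep3-/-. The difference fell to 7.17 percentage points, and the libraries of the genotypes still did not overlap. Thinning left out 502, 91, 82 and 75 kept cells with fewer UMIs, of which 31, 9, 4 and 5 were late cells (C57BL/6 replicates 1 and 2 come first, then the Hivep3-/- ones, as in every list of 4 values below).

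From 1 marker upward the share of cells fell with each further marker in every library, with no gap at the threshold. Cells with exactly 3 markers were 1309 of the 2162 late cells, and 2275 of the other cells had exactly 2. Cells with 3 markers were 7.82% and 7.58% of Nkg7-positive cells in C57BL/6 and 15.7% and 15.2% in Hivep3-/-. Cells with 5 markers were 1.34%, 1.78%, 1.85% and 2.81%, so the genotypes lay closer together at 5 markers than at 3. The exclusions removed 43, 38, 121 and 80 interferon-responding, 3, 3, 49 and 4 effector and 14, 10, 23 and 14 cycling cells that had Nkg7 and 3 or more markers.

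**Figure D1:**
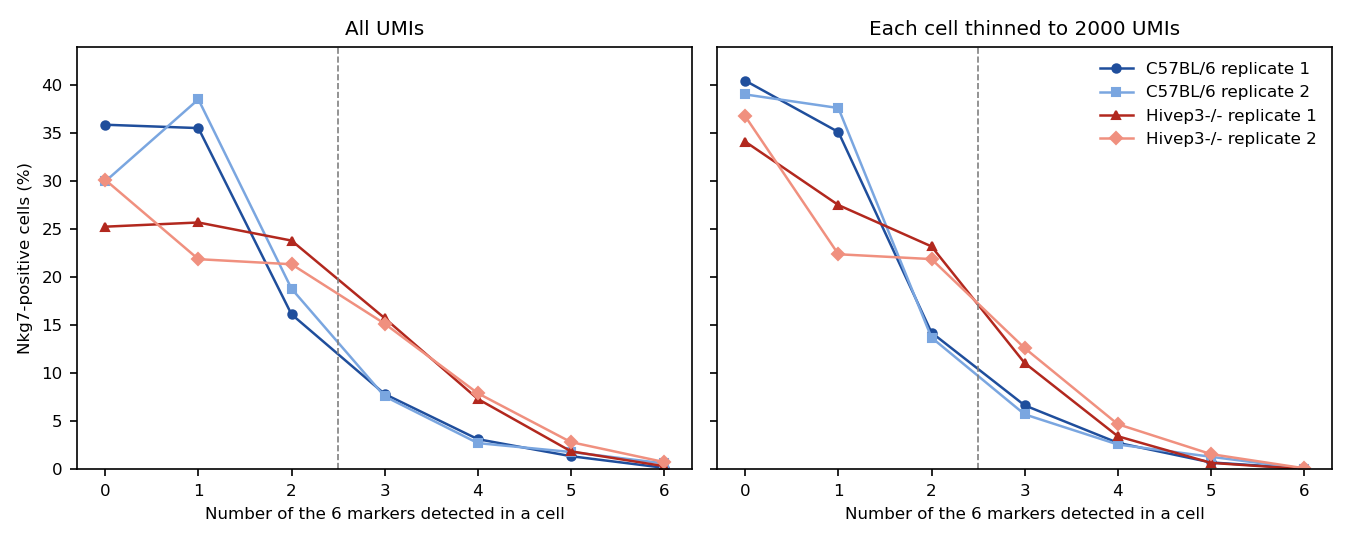
Share of Nkg7-positive cells (y axis, %) with each number of the 6 markers detected (x axis) in the 4 libraries, from all UMIs (left) and after thinning each cell to 2000 UMIs (right). Cells to the right of the dashed line are late cells, and both Hivep3-/- libraries lie above both C57BL/6 libraries at 3 and 4 markers.

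Genes of iNKT1 cells that the rule did not read were checked in the members. The 7 genes of the iNKT1 list other than Nkg7 had UMIs in the late cells of each library, and together they stood at 2614, 2930, 2850 and 3218 CPM (UMIs of the gene per 1000000 UMIs of the summed cells). The 8 iNKT2 genes summed to 412, 201, 136 and 126 CPM, and the 8 iNKT17 genes to 49.0, 58.4, 51.6 and 95.1 CPM. A CD3 chain (Cd3e, Cd3d or Cd3g) was found in 100% of late cells in every library. A constant region of the αβ receptor (Trac, Trbc1 or Trbc2) was found in 68.2% of late cells in C57BL/6 replicate 1 and in 91.6%, 94.9% and 92.5% in the others. Natural killer cells and ILC1 share many of the genes below, and 8 of their markers summed to 775, 1073, 1286 and 1426 CPM in late cells against 250, 273, 559 and 677 CPM in other Nkg7-positive cells. Most of that sum was Fcer1g, and most of the rest was Tyrobp, at 41.2, 65.1, 156 and 128 CPM. Ncr1 had 16 UMIs in C57BL/6 and 181 in Hivep3-/- late cells. Eomes, a defining factor of NK cells, was at 0 in both C57BL/6 libraries and at 6.1 and 3.1 CPM in Hivep3-/-. At least 2 of the 8 markers were found in 13.4%, 23.7%, 28.1% and 26.8% of late cells. Among other Nkg7-positive cells the shares were 4.67%, 6.94%, 12.2% and 12.4%. Markers of B cells summed to 119 to 172 CPM, nearly all Ighm, and those of myeloid cells to 143 to 163 CPM, nearly all Cst3. The 8 double positive thymocyte markers summed to 23.7, 22.8, 58.6 and 39.6 CPM in late cells. Of these, Cd8a stood at 1.03, 7.39, 36.4 and 18.8 CPM, while Rag1, Rag2, Ptcra and Arpp21 had no UMI in any library. The part of such cells in the results was not tested. By the B cell, myeloid or double positive thymocyte list, 14, 20, 46 and 55 late cells had 2 or more markers of another type. Leaving these cells out is among the settings tried, but NK cell and ILC1 markers were not used in that setting.

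The 2 genotypes entered the rule through different markers. Ly6c2 and Ccl5 were near-universal, with at least 1 UMI of Ly6c2 in 95.5%, 94.3%, 94.8% and 91.3% of late cells and of Ccl5 in 85.3%, 87.3%, 89.6% and 89.9%. Gzma was found in 72.3% and 69.6% of late cells in C57BL/6 but in 26.6% and 31.9% in Hivep3-/-. Cd244 went the other way, at 15.8% and 23.4% against 54.9% and 47.5%. Ifitm2 was detected in 37.4% and 46.8% of C57BL/6 and in 54.8% and 68.0% of Hivep3-/- late cells, while Ifitm3 was detected in 43.7% and 42.1% against 26.6% and 30.6%. Ccl5 was thus found in most members of all 4 libraries, but a Gzma transcript in most C57BL/6 and in a minority of Hivep3-/- members. Neither Ccl5 nor Ly6c2 was confined to late cells. In other Nkg7-positive cells Ccl5 was found in 17.1%, 19.0%, 38.1% and 32.8%, and Ly6c2 in 47.7%, 55.6%, 40.1% and 33.8%.

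The shares of Gzma, Ifitm2, Ifitm3 and Cd244 did not overlap between genotypes at equal depth either. After thinning to 2000 UMIs, Gzma was in 78.3%, 73.7%, 29.2% and 35.0% of late cells and Cd244 in 9.63%, 13.8%, 31.4% and 23.2%. In thinned cells that the other 5 markers admitted, Gzma was in 57.1%, 56.5%, 13.8% and 22.3%, whereas Cd244 was in 6.13%, 9.66%, 13.7% and 12.7%, a mean difference of 5.27 percentage points against 15.6 in thinned and 31.6 in all late cells. Free transcripts give a low share in any cell, and in precursors with Cd24a and Itm2a and without Nkg7 (59, 28, 97 and 128 cells, median 2321 to 4870.5 UMIs) Gzma was in 6.78%, 7.14%, 1.03% and 3.12%. Those shares lay far below the ones in late cells, and Cd244 was in 0 of the precursors of each library. A count of 0 in 312 precursors allows a share of up to 0.962%.

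**Figure D2:**
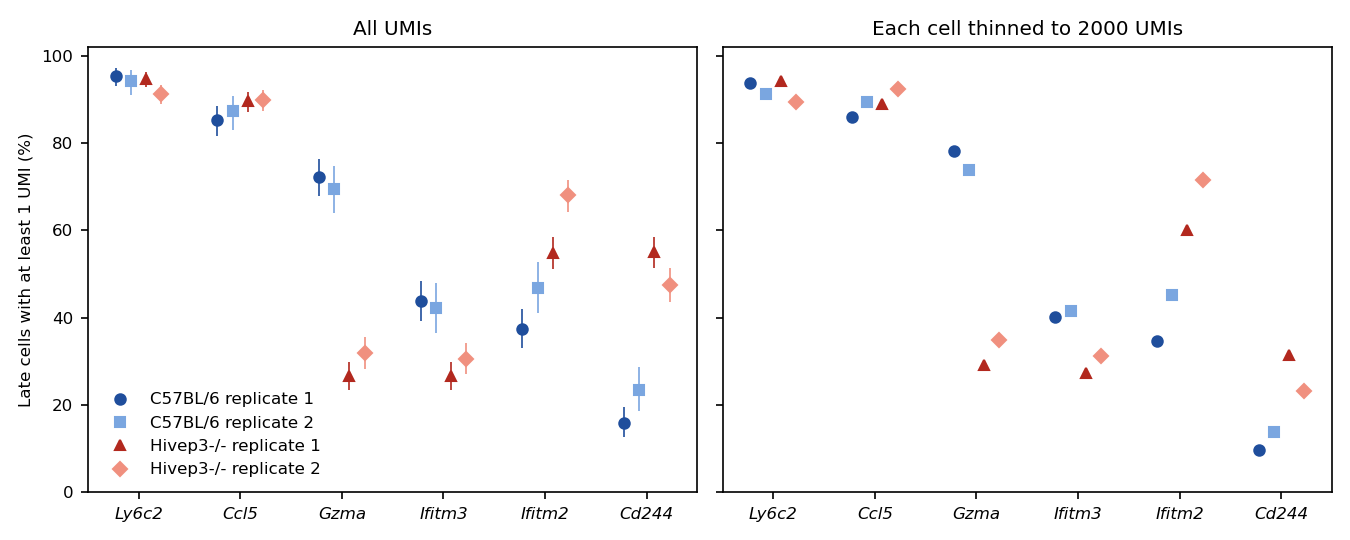
Share of late cells (y axis, %) with at least 1 UMI of each marker (x axis) in the 4 libraries, from all UMIs (left, bars are 95% exact binomial intervals) and after thinning each cell to 2000 UMIs (right). Gzma and Ifitm3 are found in fewer, and Ifitm2 and Cd244 in more, of the Hivep3-/- late cells on both sides.

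The combinations of markers differed accordingly. Ccl5, Gzma and Ly6c2 with no other marker was the most frequent combination in C57BL/6, at 33.8% and 28.1% of late cells, and it was 9.76% and 7.66% in Hivep3-/-. Ccl5, Ly6c2 and Cd244 made up 21.8% and 14.4% of Hivep3-/- late cells against 3.90% and 5.02% in C57BL/6. Ccl5, Ifitm2 and Ly6c2 made up 14.3% and 18.4% against 4.11% and 5.02%. The same 3 with Cd244 were found in 91 and 64 Hivep3-/- cells and in 0 and 2 C57BL/6 cells. Cells with all of Ccl5, Gzma, Ifitm2, Ifitm3 and Ly6c2 were 7.14% and 10.4% of C57BL/6 and 1.47% and 2.76% of Hivep3-/- late cells. A comparison of late cells between genotypes therefore sets unlike mixtures of marker combinations side by side.

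The level of each marker was compared in cells that the other 5 markers admitted, so that a gene did not choose the cells in which it was read. These comparisons were added after the values were seen. The other 5 markers still chose the cells, and for Gzma they admitted 264 and 190 in C57BL/6 and 659 and 579 in Hivep3-/-. A level here thus depends on which cells they admit, and the part of that in each difference was not tested. Gzma stood at 2232 and 2505 CPM in C57BL/6 and at 356 and 696 CPM in Hivep3-/-, a log2 difference of -2.17 ± 0.27 (standard error, adjusted p = 0.0159, edgeR). Gzma was 1 of 16 genes called among 8879 in those cells (0.18%), and it was the only marker called this way. Ifitm3 stood at 270 and 390 against 112 and 187 CPM (log2 -1.14 ± 0.25, adjusted p = 0.16), and Cd244 at 27.1 and 40.1 against 75.6 and 72.5 CPM (log2 1.16 ± 0.21, adjusted p = 0.115). Neither passed, although the libraries of the genotypes did not overlap for either. Ccl5 at 3438 and 4727 against 4454 and 6615 CPM, Ifitm2 at 282 and 481 against 471 and 844 CPM and Ly6c2 at 1636 and 1741 against 1432 and 1609 CPM had adjusted p of 0.936, 0.749 and 0.992. Fits on the cells chosen without Ccl5, Ifitm2, Ifitm3, Ly6c2 and Cd244 called 0.062%, 0.103%, 0.111%, 0% and 0.0225% of their genes by edgeR. Without Ly6c2, where no gene was called, 423 had an unadjusted p under 0.05.

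Over all Nkg7-positive cells, late and other together, 2 of the markers were called between genotypes. Ccl5 stood at 595 and 688 CPM in C57BL/6 and at 2123 and 2473 CPM in Hivep3-/- (log2 1.84 ± 0.15, adjusted p = 0.00295, edgeR). Cd244 stood at 7.24 and 9.66 against 36.3 and 36.2 CPM (log2 2.11 ± 0.18, adjusted p = 0.00377). Gzma, at 336 and 364 against 150 and 256 CPM, was not called (log2 -0.79 ± 0.23, adjusted p = 0.286), nor was Ifitm2, at 48.0 and 79.7 against 176 and 310 CPM (adjusted p = 0.0552). The fit called 83 of 11169 genes (0.743%). Ccl5 was thus higher over all Nkg7-positive cells, of which late cells are a larger share in Hivep3-/-. In other Nkg7-positive cells alone, Ccl5 stood at 217 and 211 CPM unscaled in C57BL/6 and at 1198 and 1166 CPM in Hivep3-/-. These levels are given without a test, since the rule reads Ccl5 to set that class. The part of the larger share of late cells in the rise was not tested. The rule counts Ccl5, so a rise of Ccl5 also adds to that share, and this part was not tested either.

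Reads of a near-identical copy can be lost or misplaced. Of the 75-base windows of its annotated transcripts, Ifitm2 shared 42% with other genes, most with the overlapping gene model Gm45717, and Ly6c2 shared 9.46% with Ly6c1. The shares were 0% for Gzma, Ccl5 and Cd244 and 0.662% for Ifitm3, so sharing of sequence was highest for Ifitm2.

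Beyond the genes of the rule, late cells differed from other Nkg7-positive cells of the same library in trafficking, Fc receptor adaptor and NK receptor genes on the high side and in genes of early and iNKT2 cells on the low side. These are log2 ratios of unscaled CPM plus 1 with no test, since the same cells were chosen on correlated genes. Among 2611 genes with at least 50 CPM in either class, 420 were higher and 1031 lower in late cells of all 4 libraries, and the median ratio of all genes was -0.06. At least 2-fold higher in all 4 libraries were 16 genes (0.613%), 6 of them markers of the rule, and at least 2-fold lower were 10 (0.383%).

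The highest ratio belonged to Ifitm1, a neighbour of Ifitm2 and Ifitm3 on chromosome 7. Ifitm1 stood at 12.9, 235, 137 and 302 CPM in late cells and at 0.999, 0.0912, 2.01 and 10.9 CPM in other Nkg7-positive cells. It was low in C57BL/6 replicate 1, where its 25 UMIs compare with 350, 720 and 1252 in the other libraries. Tyrobp, which encodes the adaptor DAP12, stood at 41.2, 65.1, 156 and 128 CPM in late cells against 8.78, 8.57, 38.5 and 40.0 CPM. Fcer1g, the gene of the Fc receptor γ chain, stood at 701, 968, 1084 and 1248 CPM against 220, 234, 492 and 609 CPM. Both adaptors carry activating signals from NK receptors, and both were higher in late cells of every library by at least 1.03 on the log2 scale.

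Genes of cell movement were higher as well in all 4 libraries. Klf2, a transcription factor that turns on genes for leaving the thymus, stood at 1116, 402, 620 and 460 CPM in late cells against 513, 88.6, 267 and 199 CPM. S100a4 stood at 310, 506, 631 and 912 CPM against 92.5, 96.4, 289 and 461 CPM, and S100a6 at 2288, 2480, 3139 and 3293 CPM against 1011, 794, 1509 and 1529 CPM. Both encode small calcium-binding proteins. Of the 19 genes of the egress, retention and adhesion list that were described, 16 were higher in late cells of all 4 libraries and 1 was lower, with a median of 0.60.

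Effector genes were among the highest ratios too. Ifng, the gene of interferon-γ, stood at 332, 210, 119 and 288 CPM in late cells against 155, 96.6, 52.0 and 118 CPM, a log2 ratio between 1.10 and 1.28 in each library. Serpinb9, which encodes an inhibitor of granzyme B, stood at 72.7, 89.3, 55.4 and 65.2 CPM against 33.7, 42.4, 34.1 and 28.6 CPM. Klre1, an NK receptor gene, stood at 205, 312, 185 and 195 CPM against 72.4, 125, 111 and 106 CPM. The other genes of highest ratio were Kcnj8, Glipr2, Tigit, Sidt1, Swap70 and Sytl3, with medians between 1.09 and 1.94. Tigit encodes an inhibitory receptor of T and NK cells, and its ratio was 0.58 in C57BL/6 replicate 1 and 1.31 to 1.62 in the others.

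Cytotoxic genes did not move as a block. Of 11 described cytotoxic granule genes outside the rule, 6 were higher and 2 lower in all 4 libraries (median 0.35). Gzmb, the gene of granzyme B, had log2 ratios of 0.74, 0.69, -0.14 and 0.35. Ctsw had ratios between 0.21 and 0.23, and Srgn, the granule proteoglycan serglycin, between -0.36 and -0.20. Of 9 NKR-P1, NKG2 and other NK receptor genes, 6 were higher and 1 lower in all 4 (median 0.53), and of 5 Ly49 genes 3 were higher and 1 was lower (median 0.64).

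On the low side were genes of early and IL-4-producing iNKT cells. Izumo1r, which encodes folate receptor 4, stood at 39.7, 53.7, 19.8 and 27.3 CPM in late cells against 213, 274, 120 and 142 CPM. Zbtb16, the gene of the iNKT master regulator PLZF, stood at 70.6, 22.8, 18.8 and 19.8 CPM against 147, 87.6, 66.2 and 76.1 CPM. Il4 stood at 30.9, 26.2, 8.95 and 4.59 CPM against 91.5, 91.5, 35.1 and 30.5 CPM. All 5 described iNKT2 genes were lower in late cells of all 4 libraries (median -1.83). Pdcd1, the gene of the checkpoint receptor PD-1, had a median ratio of -1.63, and of 8 coreceptor and checkpoint genes 7 were lower and 0 higher in all 4 (median -0.88). Nrgn, Plac8, Igfbp4, Ephx1, Ramp1 and Id3 were the other genes of lowest ratio, with medians between -2.82 and -1.68. Id3 encodes an inhibitor of E proteins that is high in young iNKT cells. The CD3 and constant region genes were lower in late cells too (6 of 6 in all 4 libraries, median -0.21).

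**Figure D3:**
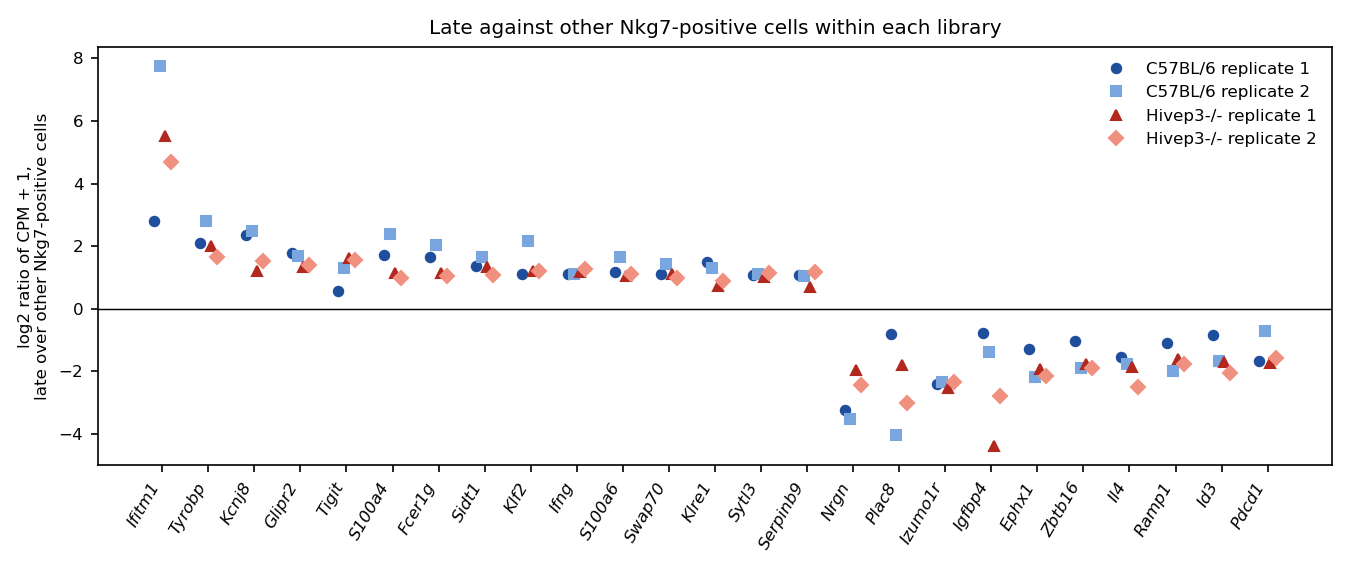
Log2 ratio of CPM plus 1 in late over other Nkg7-positive cells (y axis) for the 15 genes of highest and the 10 of lowest median ratio outside the rule (x axis), 1 point per library. All 4 libraries lie on the same side of 0 for each gene, as the choice of genes required, and Ifitm1 is farthest from 0 at 2.80 to 7.76.

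These genes changed step by step with the number of markers rather than at the threshold. Fcer1g stood at 134, 136, 289 and 386 CPM in cells with 0 markers, at 385, 445, 747 and 959 CPM with 2, at 582, 735, 992 and 1200 CPM with 3 and at 885, 1369, 1186 and 1396 CPM with 5 or 6. S100a6 stood at 1610, 1388, 2096 and 2348 CPM with 2 markers and at 2108, 2113, 2965 and 2989 CPM with 3. Zbtb16 went from 195, 126, 98 and 113 CPM with 0 markers to 27, 10, 4 and 13 CPM with 5 or 6. The cells just inside and just outside the rule were therefore close to each other. Klre1 differed among libraries at the top, with 296, 314, 127 and 225 CPM in cells with 5 or 6 markers. Gzmb stayed within 586 to 916 CPM from 1 marker upward in the Hivep3-/- libraries, whereas in C57BL/6 replicate 1 it went from 396 to 650 CPM. Tbx21, the gene of the iNKT1 factor T-bet, varied little, at 103, 112, 121 and 85 CPM with 1 marker and 108, 115, 129 and 93 CPM with 3. The 5 or 6 marker group held 55, 56, 64 and 87 cells.

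**Figure D4:**
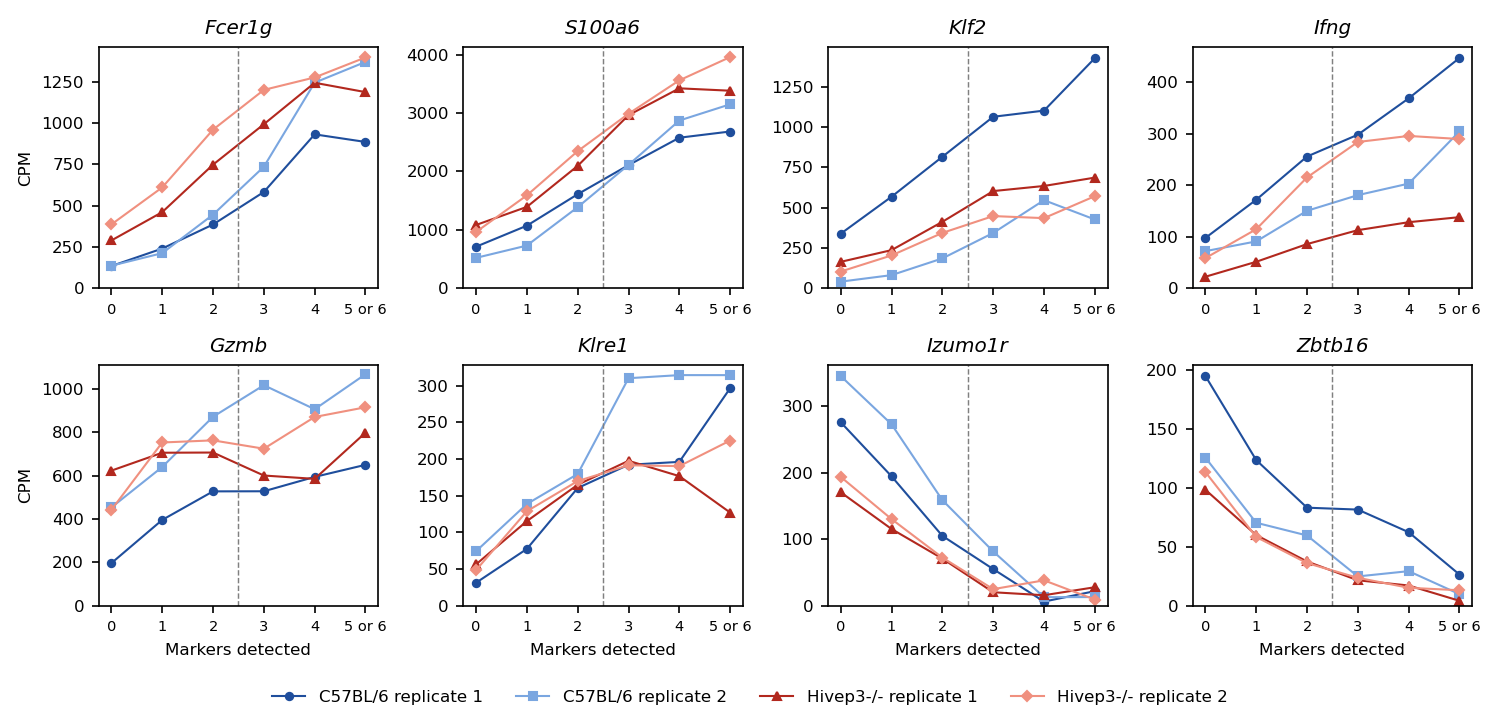
CPM (y axis) of 8 genes outside the rule in Nkg7-positive cells grouped by the number of markers detected (x axis), 1 line per library; late cells lie to the right of the dashed line. Fcer1g, S100a6, Klf2 and Ifng are higher and Izumo1r and Zbtb16 lower in the groups with more markers, with no step at the threshold.

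Late cells differed among themselves by whether Gzma was detected. This split was chosen after the values were seen and is a description with no test, and cells without Gzma had to be admitted by 3 of the other 5 markers, so the sides were selected differently. Of 11 described cytotoxic granule genes outside the rule, 4 (Gzmb, Prf1, Serpinb6b and Serpinb9) were higher with Gzma in all 4 libraries and 1 (Ctsw) was lower, with a median log2 ratio of 0.085 against 0.0021 for all genes described. There were 334, 208, 199 and 208 late cells with and 128, 91, 549 and 445 without a Gzma UMI. Ccl4, a chemokine gene, stood at 138, 91.1, 39.9 and 174 CPM with Gzma and at 34.0, 20.7, 23.5 and 32.6 CPM without it. Prf1, the gene of perforin, stood at 51.0, 76.9, 90.6 and 77.9 CPM against 28.9, 25.3, 56.3 and 25.7 CPM. Gzmb stood at 617, 1031, 970 and 1382 CPM against 424, 940, 487 and 539 CPM, with a log2 ratio of 0.994 and 1.36 in the Hivep3-/- libraries and of 0.54 and 0.13 in C57BL/6. The long noncoding RNA gene Gm4208 on chromosome 1 had the highest median ratio, 2.51. Tcf7, which encodes the factor TCF-1 of less differentiated T cells, stood on the other side, at 51.8, 45.5, 67.4 and 58.9 CPM with Gzma and 56.1, 80.5, 124 and 111 CPM without it. Cd160, an NK receptor gene, and Ikzf2, which encodes the factor Helios, were also lower with Gzma in all 4 libraries (medians -0.60 and -0.75). Of 2532 genes described, 218 were higher and 188 lower with Gzma in all 4.

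Between genotypes, few genes differed within late cells. Counts were summed over late cells of each library (1939623, 1488886, 5252677 and 4141428 UMIs) and compared with edgeR's quasi-likelihood test. Of 9172 genes, 19 were called at an adjusted p under 0.05 (0.207%), 14 higher in Hivep3-/- (0.153%) and 5 lower (0.0545%). For 1634 genes (17.8%) each Hivep3-/- library was higher than each C57BL/6 library, and for 1573 (17.2%) lower. Leaving out C57BL/6 replicate 1 left 4 calls, Itga4, Drosha, Klra9 and Car2, while leaving out C57BL/6 replicate 2 gave 34, of which 11 were among the 19, and leaving out Hivep3-/- replicate 2 gave 77. Among the 19 were Gzma and Cx3cr1, which the rule itself reads, and the T cell receptor segment gene Trbv15. The p-values rest on the spread between 2 mice per genotype.

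Of the 7 genes named as higher, Itga4 encodes an adhesion molecule, Tyrobp, Klra1 and Tigit belong to NK receptors or their adaptors, and Gzmc encodes a granzyme. Values from here to the end of the genotype comparison are CPM after TMM scaling (a factor per library that evens out composition). Itga4, which encodes integrin α4 for homing to tissue, stood at 23.2 and 14.6 CPM in C57BL/6 and at 80.4 and 79.3 CPM in Hivep3-/- late cells (log2 2.05 ± 0.22, adjusted p = 0.00477, edgeR). Gzmc, which encodes granzyme C, stood at 12.6 and 17.4 against 70.2 and 168 CPM (log2 3.002 ± 0.41, adjusted p = 0.0222). The Gzmc counts were 24, 25, 393 and 682 UMIs, so the Hivep3-/- libraries lay apart from each other as well. Tyrobp stood at 42.1 and 67.4 against 147 and 131 CPM (log2 1.36 ± 0.21, adjusted p = 0.0375). Klra1, an inhibitory Ly49 receptor gene, stood at 237 and 238 against 533 and 463 CPM (log2 1.07 ± 0.15, adjusted p = 0.0277). In all 4 of these genes the Hivep3-/- libraries lay above the C57BL/6 libraries with no overlap, as the rule for naming required. All 4 were called higher in other Nkg7-positive cells too, by edgeR. The log2 differences there were 2.49 for Itga4, 2.34 for Gzmc, 2.08 for Tyrobp and 1.51 for Klra1. The adjusted p was 0.00757 for Itga4 and Gzmc and 0.00308 for Tyrobp and Klra1. For Klra1 the rise was smaller in late than in other cells (edgeR interaction, log2 -0.42, adjusted p = 0.0185). Tigit (16.3, 33.4, 69.1 and 80.5 CPM), Ikzf2 (34.2, 32.7, 73.0 and 76.6 CPM) and 5830411N06Rik (22.6, 20.2, 61.8 and 56.3 CPM) were the other named rises, with edgeR adjusted p of 0.0482, 0.0375 and 0.0222. Without C57BL/6 replicate 1 the adjusted p was 0.235 for Gzmc, 0.291 for Tyrobp, 0.305 for Klra1 and Tigit, 0.275 for Ikzf2 and 0.149 for 5830411N06Rik, and without C57BL/6 replicate 2 Gzmc (0.0645), Klra1 (0.165), Ikzf2 (0.117) and 5830411N06Rik (0.0721) were not called either.

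The falls were fewer. Drosha, which encodes the nuclease that starts microRNA processing, stood at 63.2 and 39.6 CPM in C57BL/6 and at 8.93 and 9.14 CPM in Hivep3-/- late cells (log2 -2.52 ± 0.27, adjusted p = 0.00477, edgeR). In other Nkg7-positive cells Drosha fell too, at 126, 131, 14.8 and 14.2 CPM (adjusted p = 0.000493). Klra9, another Ly49 gene, stood at 369 and 363 against 108 and 125 CPM (log2 -1.66 ± 0.15, adjusted p = 0.00226). Klra1 and Klra9 thus moved in opposite directions within 1 gene cluster on chromosome 6, and 12.1% of the windows of Klra9 but 0.237% of those of Klra1 are shared with other genes. Only 2 falls met the rule for naming, so the 3 genes of next smallest p are given, none of which was called. Gm42418, which overlaps ribosomal RNA sequence, stood at 13645, 13616, 7696 and 6499 CPM (adjusted p = 0.0581), Bcl2a1d at 97.4, 89.7, 45.4 and 52.9 CPM (adjusted p = 0.0597) and Lmo4 at 105, 34.1, 14.8 and 18.8 CPM (adjusted p = 0.0841). The part of such ribosomal RNA in the other differences was not tested. Bcl2a1d shares 67.55% of its windows, most with Bcl2a1a.

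**Figure D5:**
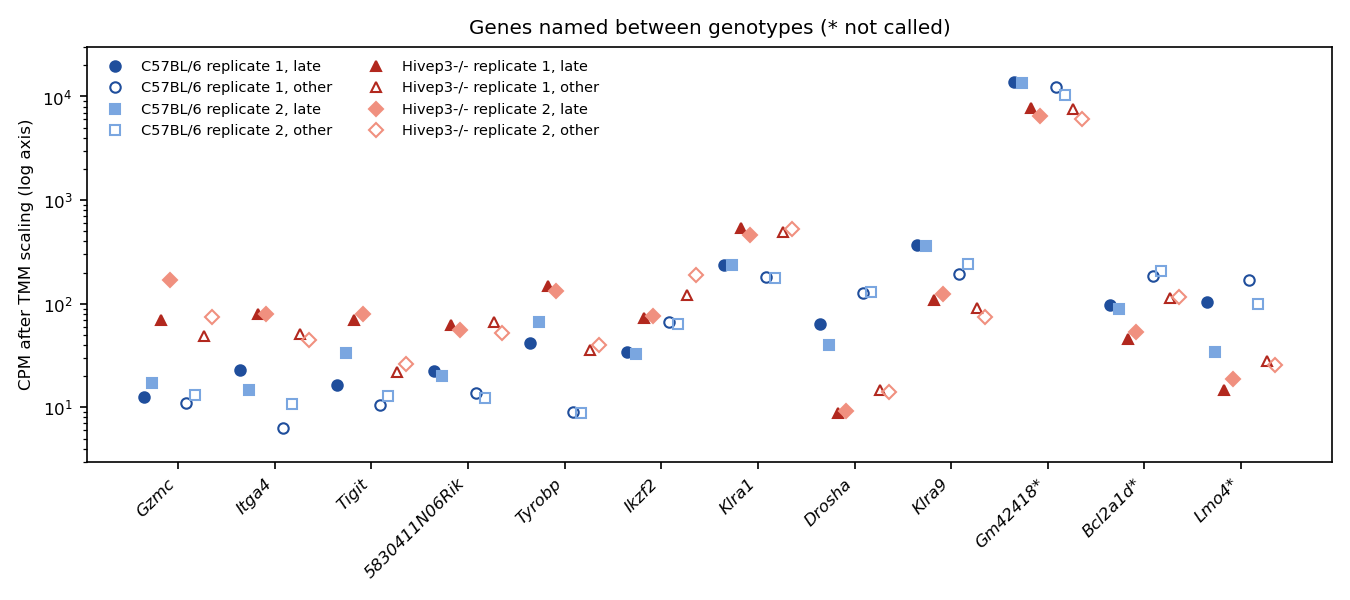
CPM after TMM scaling (y axis, log scale) in late (filled) and other Nkg7-positive cells (open) of the 4 libraries for the genes named between genotypes (x axis). Gzmc to Klra1 are higher and Drosha and Klra9 lower in Hivep3-/- late cells, and the 3 genes with an asterisk were not called.

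Other called genes were low and are named with their values known. Car2, which encodes a carbonic anhydrase, had 1 and 2 UMIs in C57BL/6 and 153 and 122 in Hivep3-/- late cells, a ratio of 33.5 per UMI with a counting interval of 11.3 to 163. Gpr15, a homing receptor gene, had 1 and 0 against 100 and 55 UMIs (ratio 56.6, interval 10.0 to 2249). Crtam, a receptor gene of cytotoxic T cells, had 0 and 0 against 45 and 55 UMIs, so it was at least 12.2-fold higher against a floor of 3 UMIs over the C57BL/6 group. Nebl had 8, 13, 143 and 148 UMIs. Il4 stood at 31.6 and 27.1 against 8.39 and 4.69 CPM (log2 -2.13 ± 0.31, adjusted p = 0.0277, edgeR). Tceal3 had 16, 14, 5 and 5 UMIs and was not called when any 1 library was left out. Without C57BL/6 replicate 1 none of Gpr15, Crtam, Nebl and Il4 was called (adjusted p between 0.089 and 0.335), while Car2 was.

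Because Gzma-positive cells were the larger part in C57BL/6 and the smaller in Hivep3-/-, the comparison was repeated within each kind after the values were seen. In late cells without a Gzma UMI, 30 of 8334 genes were called (0.36%), 15 of them among the 19 above. Drosha (log2 -2.51), Klra9 (-1.79), Itga4 (1.75), Gzmc (2.73), Tyrobp (1.83), Klra1 (1.15), Tigit (2.02) and Il4 (-2.92) were all called there. Ikzf2 was not, at 0.87 (adjusted p = 0.269). In late cells with a Gzma UMI 1 gene of 7705 was called by edgeR, Drosha (log2 -3.11, adjusted p = 0.0262), and 353 had an unadjusted p under 0.05. The log2 differences there were -0.94 for Klra9, 1.90 for Itga4 and 2.65 for Gzmc.

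Some genes differed between genotypes by a different amount in late than in other Nkg7-positive cells. An edgeR model of both classes, blocked on library, called its interaction term for 49 of 10760 genes (0.455%), 6 of which the rule reads. Klra5, a Ly49 gene, stood at 179, 320, 354 and 469 CPM in late cells and at 50.2, 110, 227 and 295 CPM in the others (interaction log2 -1.01 ± 0.08, adjusted p = 1.24e-08). Its gap between late and other cells was 1.64 on the log2 scale in C57BL/6 and 0.66 in Hivep3-/-. Klrc1, which encodes NKG2A, had a gap of 1.18 against 0.42 (interaction -0.76 ± 0.07, adjusted p = 1.13e-07), and 25.0% of its windows are shared, most with Klrc2. Fcer1g had a gap of 1.92 against 1.16 (interaction -0.73 ± 0.07, adjusted p = 4.20e-07). S100a4 had a gap of 2.15 against 1.12 (interaction -0.98 ± 0.10, adjusted p = 1.06e-06). For these 4 genes, high in late cells of all libraries, the other Nkg7-positive cells of Hivep3-/- lay nearer to late cells. The make-up of that class differed, since cells with exactly 2 markers were 600 of 3257, 444 of 2062, 707 of 2220 and 524 of 1801. Fcer1g was higher in cells with more markers, as given above. The part of that mix in the gaps is not given here. Igfbp4, low in late cells, stood at 54.8, 9.87, 2.19 and 15.1 CPM in them and at 92.1, 26.8, 62.1 and 104 CPM in the others (interaction -2.53 ± 0.31, adjusted p = 2.00e-05, but 0.145 without C57BL/6 replicate 1). Of the 43 called genes outside the rule, 34 had the smaller gap in Hivep3-/-, against 58.9% of all genes tested.

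Hivep3 itself was low in late cells, with 33, 13, 119 and 90 UMIs, or 17.0, 8.73, 22.7 and 21.7 CPM unscaled, and 30.9, 26.7, 53.8 and 45.2 CPM in other Nkg7-positive cells. Which part of the gene was disrupted was not known here, so transcripts counted at the 5′ end do not check the labels. Of the 8 tested genes of the HIVEP family and microRNA processing, Drosha alone was called, and the median difference of the list was -0.03 against -0.0042 for all genes.

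The other gene groups were described by counts between genotypes in late cells, to be read against 17.8% of all genes with both Hivep3-/- libraries above and 17.2% with both below. In egress, retention and adhesion, 3 of 24 genes were called, all higher, with Itga4 and Crtam among them, while 13 had both Hivep3-/- libraries above and 3 below (median log2 0.23). S100a6 (2336, 2566, 2944 and 3369 CPM), Cd7 (1374, 1643, 2098 and 2006 CPM) and Vim (1189, 1325, 1720 and 1851 CPM) were among the 13 and were not called. In MHC class I and antigen processing, 7 of 14 lay above and 0 below with 0 called (median 0.22). In NK receptors 1 of 15 was called (Tigit, higher), with 7 above and 3 below. Klrk1, the gene of NKG2D, stood at 624, 601, 472 and 431 CPM and was not called (adjusted p = 0.54). In Ly49 receptors 1 of 7 was called in each direction, with 4 above and 3 below. In the adaptors, CD3 chains and kinases 1 of 16 was called (Tyrobp), with 6 above and 1 below.

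The remaining groups were counted in the same way. In transcription factors, 1 of 27 was called (Ikzf2, higher), with 4 above and 8 below (median -0.33). Tcf7 stood at 54.2, 57.7, 103 and 97.1 CPM (log2 0.84 ± 0.16, adjusted p = 0.0841), and Id2 at 1175, 1399, 862 and 896 CPM (adjusted p = 0.36). Tbx21 stood at 109, 120, 114 and 94.9 CPM. In coreceptors and checkpoints 0 of 13 were called, with 4 above and 6 below, and in survival and death genes 0 of 16, with 1 above and 6 below. The cytokine list had 1 call of 8 (Il4, lower), and Ifng ranged over 339, 218, 112 and 295 CPM with overlap between genotypes. Of 15 cytotoxic granule genes 1 was called (Gzmc), and Gzmb (570, 1040, 576 and 813 CPM) overlapped. Of 17 interferon response genes outside the rule 0 were called, with 5 above and 4 below (median 0.05), and the same count of 0 held for 16 cytokine receptor, 7 chemokine receptor, 4 chemokine ligand, 8 SLAM, 4 IFITM and Ly6, 16 immediate-early and 15 glycolysis and biosynthesis genes. Over these 7 lists and the 4 above with no call, 31 of 130 genes had an unadjusted p under 0.05 in edgeR, and DESeq2 called 2 (Cd4 and Hspa1b). Over all genes, 594 had an unadjusted p under 0.05. Dusp1, an immediate-early gene, stood at 3607, 1151, 233 and 994 CPM and Fos at 1656, 548, 268 and 787 CPM. Such genes are known to respond to the handling of cells, and C57BL/6 replicate 1 was the highest library in both.

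Depth and the number of mice limit these comparisons. Late cells of the C57BL/6 libraries held 3428509 UMIs against 9394105 in Hivep3-/-. Between 26 and 58 cell barcodes were shared by any pair of libraries out of 4243 to 8374.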

How the data were processed

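The deposited values were raw counts of UMIs per gene and cell barcode in 4 matrices of called cells, made by the authors with Cell Ranger (3.1.0, mm10) from droplet libraries read at the 5′ end; the submitters' notes also name Seurat 3.1.4. The sources used here do not give the annotation release. Ambient RNA was not removed here. The matrices held 22279 barcodes and 31053 genes, with 31381738 to 48291764 UMIs per library. Cells with at least 500 and under 4100 genes, at least 1000 UMIs and under 6% mitochondrial UMIs were kept, and no doublet caller was run. Late cells were then taken by the rule, counts were summed per library, and genotypes were compared in edgeR 4.0.16 (R 4.3.3; filterByExpr, TMM, quasi-likelihood, two-sided, adjusted by Benjamini and Hochberg over every tested gene, called under 0.05). A positive log2 difference means higher in Hivep3-/-, and its standard error came from the F statistic. The interaction was fitted on sums of late and other Nkg7-positive cells with the library as a block. Shares were compared by exact permutation of library values (SciPy 1.17.1). DESeq2 1.42.0 and other settings served as alternatives, and the edgeR steps were tested on simulated data.

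The members and all gene lists were chosen with earlier results of these data known. Named between genotypes were up to 10 called genes per direction of largest change among those averaging at least 20 CPM whose genotypes did not overlap, with up to 5 of smallest p where fewer than 5 were called; genes of the rule, of sex and receptor segments were left out. Also named were the 5 interaction genes of smallest p, up to 4 members of highest level per list, and the 15 highest and 10 lowest late over other ratios. Promoters came from RefSeq by symbol or synonym (7 of 8 genes matched) and positions from GENCODE, which held 30934 of the 31053 gene identifiers. The values of 1 called gene are not reported here.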

Additional observations from a re-analysis of the deposited data

Results flagged for a closer look

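For 5 genes the genotype difference in late cells was tested against that in other Nkg7-positive cells, and the difference itself passed the edgeR interaction test. On the log2 scale it was -1.01 for Klra5, -0.76 for Klrc1, -0.73 for Fcer1g, -0.98 for S100a4 and -2.53 for Igfbp4. Within late cells alone none of the 5 was called (Klra5 0.72, Klrc1 -0.05, Fcer1g 0.42, S100a4 0.86 and Igfbp4 -2.05), whereas in other Nkg7-positive cells Fcer1g (1.19) and S100a4 (1.90) were higher in Hivep3-/-, with edgeR adjusted p of 0.0277 and 0.0213. Both classes were set by markers whose detection differed between genotypes, and the part of that in these 5 values was not tested.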

How the results depend on the processing

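The difference in the share of late cells kept its direction in every setting. Of all cells it was 4.94 percentage points after thinning, 12.4 with at least 2 markers and 3.602 with at least 4, and 7.78 to 9.58 with 1 library left out. Of Nkg7-positive cells it was 7.17, 18.5 and 5.62 in the same settings and 12.7 to 14.1 with 1 library left out. These settings all read Ccl5 and Cd244, which edgeR called higher over all Nkg7-positive Hivep3-/- cells. Without Ccl5 in the rule, 149, 106, 163 and 177 of 3176, 2261, 2921 and 2371 thinned Nkg7-positive cells passed it. Without Gzma 163, 131, 363 and 376 of the same cells passed. The part of single markers in the difference was not tested. The count of genes called between genotypes, 19 in all, was 179 without the filter on low counts, 53 with at least 2 markers, 4 with at least 4, and 4 to 77 with 1 library left out (4 when C57BL/6 replicate 1 was dropped, 34 for C57BL/6 replicate 2 and 77 for Hivep3-/- replicate 2; where a group kept 1 library, it was assumed to vary like the other). Among settings chosen after seeing the data it was 30 in Gzma-negative and 1 in Gzma-positive late cells, 83 in all Nkg7-positive cells, and 5, 9, 10, 0 and 2 with the rule without Ccl5, Ifitm2, Ifitm3, Ly6c2 and Cd244. DESeq2 called 27 (17 higher, 10 lower), of which 17 were among the 19. The causes of these shifts were not tested, beyond the fewer cells that stricter rules hold. The interaction count, 49 in all, was 95 without the filter and 54 to 69 with 1 library left out. The difference of Igfbp4 was not called without C57BL/6 replicate 1 (adjusted p = 0.145, edgeR). Trbv15 reversed to -0.28 with at least 2 markers. Drosha and Klra9 were called in each fit that left out 1 library, as were Itga4 and Car2, while the other called genes lost the call in at least 1.

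Mouse numbers 1 and 2 recur in both genotypes, but nothing says that they pair the mice. Deviations of same-numbered libraries from their group means correlated at 0.0461 over 9172 genes, and a fit with the replicate block called 25 genes, 18 of them among the 19.

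With 2 mice per genotype, 1 of them of another sex, shares cannot reach a small p, and depth per cell differs between genotypes in the direction of the marker counts. The lowest genes rest on a few UMIs in C57BL/6.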

Other observations

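Coreceptor genes, which are low in mature iNKT1 cells, differed in level between the late cells of the genotypes without an edgeR call. Cd8a stood at 1.05, 7.65, 34.1 and 19.3 CPM after TMM scaling in the 2 C57BL/6 and then the 2 Hivep3-/- libraries (adjusted p = 0.1, edgeR). Cd8b1, its partner chain, had 1, 2, 31 and 15 UMIs, and Cd4 had 34, 11, 11 and 4 UMIs. The NK receptor gene Ncr1 had 16 UMIs in the C57BL/6 and 181 in the Hivep3-/- late cells, a ratio of 4.13 per UMI (interval 2.47 to 7.38, for counting error only), and Itgax, which encodes CD11c, had 1 against 78 (28.5, interval 4.96 to 1139). Over the spread between mice neither was called (edgeR adjusted p = 0.139 for Ncr1 and 0.0581 for Itgax).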
